A study of Mus musculus with 768 samples.

Results

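The platelet-derived growth factor (PDGF) genes make up a small family of 3 receptor genes (*Pdgfra*, *Pdgfrb* and *Pdgfrl*) and 4 ligand genes (*Pdgfa*, *Pdgfb*, *Pdgfc* and *Pdgfd*), and these 7 were taken by symbol from the 24490 genes in the count table. They were followed in 727 of 768 wells, those with at least 10000 reads outside the ERCC spike-ins, to see which cells carried each receptor, which carried both, and which made each ligand. The cells came from mammary tumors of 2 MMTV-PyMT mice (FVB/N-Tg(MMTVPyVT)634Mul/J), 14 weeks old and with no treatment named in the labels, in which a viral promoter drives the polyoma middle T oncogene in mammary epithelium. All were cancer-associated fibroblasts (CAFs) by negative selection, sorted as EpCAM-, CD45-, CD31- and NG2-, and sequenced 1 cell per well by Smart-seq2, which reads whole transcripts without molecular identifiers. Each tumor filled 1 plate of 384 wells and gave 373 and 354 of the wells used, so that the tumor is the replicate (n = 2) and tumor and plate cannot be told apart.

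PDGF ligands are secreted dimers. The A and C chains bind the receptor encoded by *Pdgfra*, whereas the B chain binds both receptors and the D chain mainly the receptor encoded by *Pdgfrb*. Both receptors are tyrosine kinases that dimerize with themselves or with each other, so the pair that a cell carries sets which ligands it can answer. In many tissues *Pdgfra* marks connective tissue fibroblasts and *Pdgfrb* marks pericytes and other mural cells around vessels. *Pdgfrl* encodes a secreted protein that resembles the outer part of a PDGF receptor and has no kinase. The A and B chains are cut by proprotein convertases inside the cell, and the C and D chains are released as latent forms that plasminogen activators can process.

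In the RefSeq annotation of GRCm38.p6, the assembly called mm10, *Pdgfra* lies at chr5:75151322-75198206, and the ligand genes lie at chr5:138976014-139000792 (*Pdgfa*), chr15:79995865-80024614 (*Pdgfb*), chr3:81036416-81214040 (*Pdgfc*) and chr9:6168363-6534284 (*Pdgfd*). *Pdgfra* and *Pdgfa*, a receptor and a ligand of it that were high in different cells, and *Pdgfc*, highest among the named populations in the smallest, are shown with the 250 bases before an annotated start. The windows of *Pdgfra* and *Pdgfa* lie inside the span of the gene, which has other starts. Capitals mark a GC box (GGGCGG or CCGCCC on the strand shown), and a TATA box (TATAAA or TTTATA) was searched as well.
Pdgfra, chr5:75152001-75152250, plus strand: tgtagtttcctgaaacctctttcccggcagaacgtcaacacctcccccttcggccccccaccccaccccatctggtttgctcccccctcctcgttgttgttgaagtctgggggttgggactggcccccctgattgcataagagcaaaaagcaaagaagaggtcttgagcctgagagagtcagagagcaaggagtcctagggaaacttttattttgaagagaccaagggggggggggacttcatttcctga
Pdgfa, upstream start, chr5:138994945-138995194, minus strand: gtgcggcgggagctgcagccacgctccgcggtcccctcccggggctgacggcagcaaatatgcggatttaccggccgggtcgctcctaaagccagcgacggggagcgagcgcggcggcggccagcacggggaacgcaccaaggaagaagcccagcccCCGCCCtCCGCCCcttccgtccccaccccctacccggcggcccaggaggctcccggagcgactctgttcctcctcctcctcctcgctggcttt
Pdgfa, downstream start, chr5:138994282-138994531, minus strand: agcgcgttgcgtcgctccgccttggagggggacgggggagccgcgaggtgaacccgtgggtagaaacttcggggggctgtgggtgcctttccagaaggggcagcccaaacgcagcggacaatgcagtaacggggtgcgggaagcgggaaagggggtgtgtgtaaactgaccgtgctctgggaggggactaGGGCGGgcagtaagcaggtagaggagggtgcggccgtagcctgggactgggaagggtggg
Pdgfc, chr3:81036166-81036415, plus strand: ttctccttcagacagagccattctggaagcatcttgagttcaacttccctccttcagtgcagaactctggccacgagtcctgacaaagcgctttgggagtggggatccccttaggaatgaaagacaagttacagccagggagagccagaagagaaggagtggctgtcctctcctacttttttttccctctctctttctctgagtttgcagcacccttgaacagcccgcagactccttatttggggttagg
The windows of *Pdgfa* held 28 and 19 CpG dinucleotides, whereas those of *Pdgfra* and *Pdgfc* held 4 and 3, against a median of 6 over 32851 promoter windows of the same length. GC boxes numbered 2 and 1 in the *Pdgfa* windows and 0 in the other windows printed here, and 32.7% of all windows held at least 1. No TATA box was found in the windows printed here, whereas the window of *Pdgfd*, not printed, held 1 TATA box and 3 CpG dinucleotides, and 12.4% of all windows held a TATA box.

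Depth ran from 10281 to 838772 reads per well in tumor 1 and from 10476 to 1190516 in tumor 2, with medians of 219264 and 198180. Clustering on genes other than the 7 gave a population of 497 cells with vascular markers such as *Notch3* and *Rgs5* (vCAF-like), 142 with matrix markers such as *Dcn* and *Lum* (mCAF-like), 42 with both vascular and cell cycle markers such as *Mki67* (cCAF-like) and 30 with *Scrg1* and *Sox10* (dCAF-like). Both tumors contributed to each, with 264 and 233, 75 and 67, 23 and 19, and 9 and 21 cells. The dCAF-like cells also had *Krt5* among their leading genes, and their summed RPKM of 8 epithelial markers had medians of 317 and 108 in the tumors, against medians of 0 in the other populations. All 8 epithelial markers but *Cldn4* had reads in the dCAF-like cells of tumor 1, and all 8 in tumor 2. Of 5 Schwann cell markers, which include *Sox10* from the dCAF-like list, 2 and 4 had reads in the dCAF-like cells (medians of the summed RPKM 432 and 189). Among the named populations, *Pecam1* (endothelium) was at 0 in all but the mCAF-like cells of tumor 2, and *Cdh5* (endothelium) and *Ptprc* (immune cells) in all but the dCAF-like cells of tumor 2. Other markers of these cells were read, with 0 to 4 of 6 endothelial and 0 to 3 of 6 immune markers per population and tumor, and the mean summed RPKM ran from 0 to 114 for endothelial and from 0 to 10.2 for immune markers. The part of these markers in the results was not tested. A further 16 cells fell into clusters without a name, of which 6 had haemoglobin genes in front and 10 had *Gdf10* and *Ogn*. The latter 10 missed the mCAF-like name by a small margin and made up 0.268% of the cells of tumor 1 and 2.54% of tumor 2.

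Reads of an abundant gene also turned up in wells that held little of a cell. Of the 41 wells under 10000 reads (median 999), 34 had at least 1 *Pdgfrb* read, with a median of 2 and at most 13, and 6 had a *Pdgfra* read, at most 2. The 6 wells led by haemoglobin genes (median 16210 reads) all had *Pdgfrb* reads, from 2 to 8, and 0 of them had a *Pdgfra*, *Pdgfa*, *Pdgfb*, *Pdgfc* or *Pdgfd* read. The wells used had a median of 401 *Pdgfrb* reads in deeper libraries. Whether the shallow wells held parts of cells with the receptor was not tested, and the counts are not scaled to depth. A few *Pdgfrb* reads in a deep well are thus weak evidence that the cell carries the receptor. Shares for at least 1 read are therefore set beside shares over the background count, that is, with more reads than the highest count in those 47 wells, which was 2 for *Pdgfra*, 13 for *Pdgfrb*, 4 for *Pdgfrl*, 11 for *Pdgfa*, 1 for *Pdgfb* and 0 for *Pdgfc* and *Pdgfd*. The second measure was chosen after the reads were seen. Only 2 of the 41 shallow wells had a *Pdgfa* read, so the count of 11 rests on few wells, and whether the well that set it held a cell was not tested. The plot of *Pdgfrb* reads per well shows the distance between these wells and the populations.

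**Figure D1:**
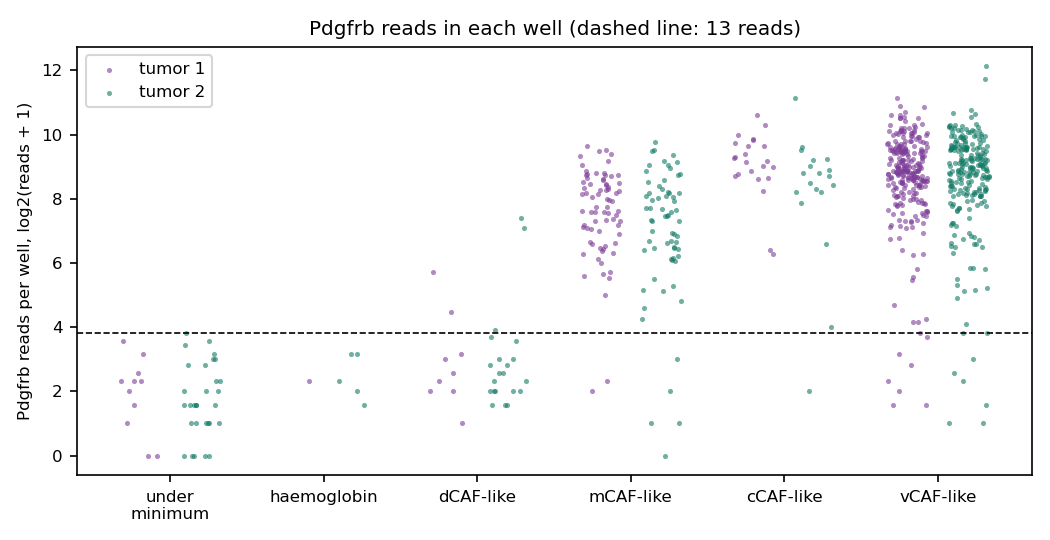
*Pdgfrb* reads in each well as log2(reads + 1), for the wells under 10000 reads, the wells led by haemoglobin genes and the 4 populations, with tumor 1 and tumor 2 side by side and the highest count of the first 2 classes (13 reads) as a dashed line. Most dCAF-like cells lie at or under the line, and most cells of the other populations lie far above it.

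*Pdgfra*, the receptor of the A and C chains, was high in mCAF-like cells and low in most cells of the other named populations. At least 1 read was found in 74 of 75 and 64 of 67 mCAF-like cells, and 73 and 62 passed the background count, with mean levels of 6.32 and 5.70 log2(RPKM + 1) in the tumors, or 107 ± 21.4 RPKM (SD, n = 2). The mCAF-like cells held 91.3% and 94.6% of the summed *Pdgfra* RPKM, with 20.1% and 18.9% of the cells. In vCAF-like cells the mean levels were 0.34 and 0.12, in cCAF-like cells 0.07 and 0.10 and in dCAF-like cells 1.34 and 0.17. The mCAF-like values did not overlap with those of any other population, whereas the dCAF-like and vCAF-like values overlapped. Summed over cells, *Pdgfra* rose in mCAF-like against all other cells by 5.91 ± 0.61 on the log2 scale (SE, adjusted p = 0.0033) and changed by -5.58 ± 1.26 in vCAF-like cells (adjusted p = 0.0425). Each tumor alone gave 5.49 and 6.74 for mCAF-like and -4.92 and -8.48 for vCAF-like cells, the latter far apart. In cCAF-like cells only 2 reads were left in each tumor, a CPM of 0.326 and 0.415 against 247 and 167 in the other cells. The level of the other cells was 758 times (95% counting interval 210 to 6257) and 403 times (112 to 3330) that of the cCAF-like cells, a decrease that was called (adjusted p = 0.0045). A counting interval treats reads as independent draws, which reads without molecular identifiers are not, so it is likely too narrow. The lower values in dCAF-like cells were not called (-2.71 ± 1.41, adjusted p = 0.346).

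A *Pdgfra* read was also found in 51 of 264 and 23 of 233 vCAF-like cells, of which 34 and 16 had a single read. Only 10 and 3 of these cells passed the background count, and they held 95.6% and 56.4% of the *Pdgfra* reads of all vCAF-like cells. These few cells carried matrix markers at a mean of 4.69 and 5.48 log2(RPKM + 1), whereas the vCAF-like cells without a *Pdgfra* read had 0.785 and 0.916. Their vascular markers were at 4.65 and 3.21, against 7.46 and 7.32. They lie between the populations in both marker sets, and whether they hold 1 cell or more was not tested. At 50000 reads per cell, the shares of vCAF-like cells with a read became 8.03% and 3.72% in place of 19.3% and 9.87%, and those of mCAF-like cells 98.6% and 92.5% in place of 98.7% and 95.5%. At that depth 15 and 18 vCAF-like cells and 2 and 0 mCAF-like cells were too shallow and left out.

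*Pdgfrb* (chr18:61045127-61085067), the receptor of the B and D chains, was the most widely read member. In the tumors the mean levels were 8.48 and 8.52 log2(RPKM + 1) in vCAF-like, 8.59 and 7.88 in cCAF-like, 6.99 and 6.62 in mCAF-like and 2.45 and 3.21 in dCAF-like cells. The vCAF-like and cCAF-like values overlapped, whereas those of the other neighbors in this order did not. As a mean RPKM this was 444 ± 17.1 in vCAF-like, 357 ± 73.8 in cCAF-like, 157 ± 2.18 in mCAF-like and 18.4 ± 14.9 in dCAF-like cells (SD, n = 2). *Pdgfrb* rose in vCAF-like against other cells (1.33 ± 0.18, adjusted p = 0.0070) and fell in mCAF-like cells (-1.18 ± 0.14, adjusted p = 0.0052). Both calls were lost when the ERCC totals served as library size (0.48, adjusted p = 0.110, and -0.44, adjusted p = 0.0947), a scaling that moved the median of all genes to -0.82 and 0.69. In cCAF-like cells the difference was -0.02 ± 0.16 (adjusted p = 0.969).

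Every dCAF-like cell had a *Pdgfrb* read, but the median was 5 reads in each tumor, inside the range of the wells led by haemoglobin genes. Only 2 of 9 and 3 of 21 dCAF-like cells had more than 13 reads, and they held 70.2% and 78.3% of the *Pdgfrb* reads of the population. The change in dCAF-like cells was -5.11 ± 0.52 (adjusted p = 0.0242; -5.80 and -4.65 in the tumors alone), from 104 and 405 reads in all, of which 1 cell held 50.0% and 41.7%. It kept its direction but was no longer called with the ERCC totals (-4.56, adjusted p = 0.0698), with cells scaled to the same total (-4.49, adjusted p = 0.0700) or with Leiden clustering, Ward clustering or the PDGF genes kept for clustering (-3.30 to -3.11, adjusted p = 0.0745 to 0.115), in which 41, 45 and 39 cells were dCAF-like. With the PDGF genes kept, the neighbor distance of the clustering (eps) also became 2.5 in place of 3.1, and the dCAF-like cells took in 10 cells that otherwise had no name. The calls over all genes fell as well under these settings, from 623 to between 172 and 442.

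*Pdgfrl* (chr8:40926233-40990782), the receptor-like gene without a kinase, followed *Pdgfra* into mCAF-like cells but was not limited to them. It was read in 72 of 75 and 62 of 67 mCAF-like cells (7.85 and 7.08 log2(RPKM + 1)), and in 7 of 9 and 12 of 21 dCAF-like cells (6.06 and 3.99). In vCAF-like cells 106 of 264 and 90 of 233 had a read (2.35 and 1.99), and in cCAF-like cells 8 of 23 and 6 of 19 (1.50 and 1.65). Over the background count these were 70 and 59 mCAF-like, 7 and 12 dCAF-like, 78 and 57 vCAF-like and 5 and 4 cCAF-like cells. The order of the populations was the same in both tumors, with no overlap between neighbors. *Pdgfrl* rose in mCAF-like cells (3.04 ± 0.23, adjusted p = 0.0014) and fell in vCAF-like (-2.62 ± 0.31, adjusted p = 0.0053) and cCAF-like cells (-2.95 ± 0.24, adjusted p = 0.0109), whereas dCAF-like cells did not differ detectably from the rest (0.42 ± 0.54, adjusted p = 0.707). In vCAF-like cells *Pdgfrl* was spread over more cells than *Pdgfra*, since 78 and 57 cells had 5 or more reads, against 10 and 2 for *Pdgfra*. These 78 and 57 cells held 99.3% and 98.2% of the *Pdgfrl* reads, and 19 and 21 others had a single one. In the cells with 5 or more *Pdgfrl* reads the matrix markers were at 1.36 and 1.50, against 0.741 and 0.869 in vCAF-like cells without a *Pdgfrl* read and 7.64 over all mCAF-like cells.

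**Figure D2:**
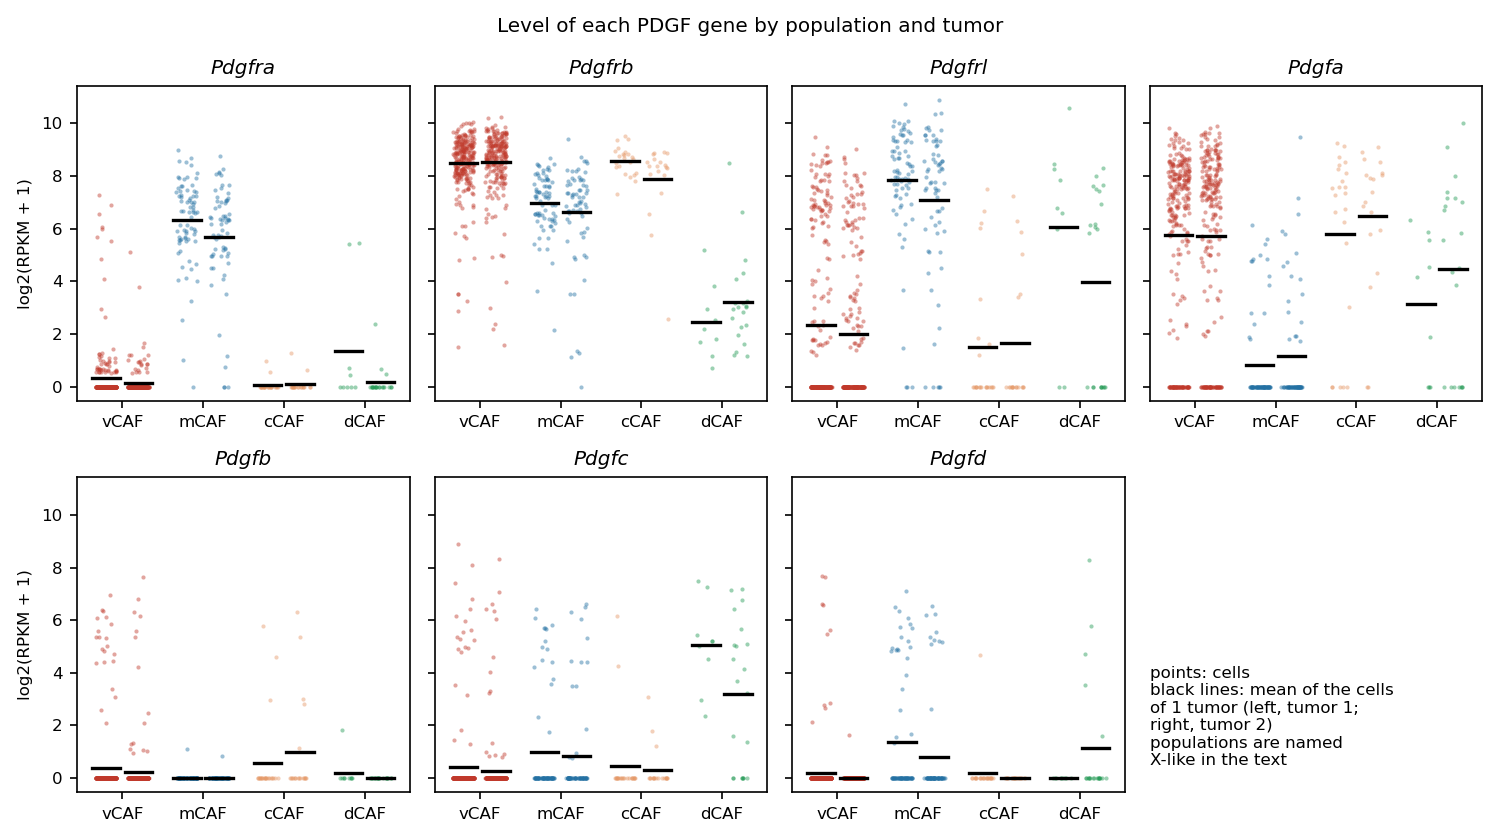
Level of the 7 PDGF genes in single cells as log2(RPKM + 1), by population, with tumor 1 left and tumor 2 right in each pair and the mean of the cells of a tumor as a black line. *Pdgfra* and *Pdgfrl* are highest in mCAF-like cells (mean *Pdgfra* 6.32 and 5.70), *Pdgfrb* and *Pdgfa* in vCAF-like and cCAF-like cells, and *Pdgfc* in dCAF-like cells (5.05 and 3.19).

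Most cells had *Pdgfrb* alone, and a smaller set had both receptors. With at least 1 read, 132 of 373 cells of tumor 1 (35.4%, exact 95% interval 30.5 to 40.5) and 99 of 354 of tumor 2 (28.0%, 23.4 to 33.0) had both, a mean of 31.7% ± 5.25 (SD, n = 2). *Pdgfrb* alone was found in 241 and 254 cells (64.6% and 71.8%). Since 726 of 727 cells had a *Pdgfrb* read, this measure cannot show cells with *Pdgfra* alone. Over the background counts, 84 and 68 cells (22.5% and 19.2%) had both, 271 and 249 had *Pdgfrb* alone, 2 and 3 had *Pdgfra* alone, and 16 and 34 had neither. The 6 wells led by haemoglobin genes are counted here and also helped to set the background counts, so they have neither by construction. Intervals cover the counting of cells within a tumor only, since cells of a tumor are not replicates.

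The pairing differed between populations in both tumors. Over the background counts, 72 of 75 and 61 of 67 mCAF-like cells carried both receptors (96.0% and 91.0%), against 9 of 264 and 2 of 233 vCAF-like cells (3.41% and 0.858%), 0 of 23 and 0 of 19 cCAF-like cells and 2 of 9 and 0 of 21 dCAF-like cells. *Pdgfrb* alone was the state of 93.6% and 95.7% of vCAF-like and of 100% and 94.7% of cCAF-like cells. Neither receptor was the state of 7 of 9 and 17 of 21 dCAF-like cells (77.8% and 81.0%). This share moved with the limit used. It was 7 of 9 and 16 of 21 at an RPKM of at least 10, and 4 of 9 and 10 of 21 at 5 reads. At an RPKM of at least 1 it was 1 of 9 and 0 of 21, and at 50000 reads per cell 1 of 9 and 5 of 19. Among mCAF-like cells the receptors were close in level. The median of *Pdgfrb* minus *Pdgfra* per cell was 0.38 and 0.81 log2(RPKM + 1), and *Pdgfra* was the higher of the pair in 33 of 75 and 18 of 67 cells. In vCAF-like cells the same median was 8.49 and 8.72, and *Pdgfra* was the higher in 1 of 264 and 0 of 233 cells. Over mCAF-like cells the levels of both receptors had a Spearman correlation of -0.085 (75 cells) and 0.26 (67 cells), a description of cells that share a plate and differ in depth.

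**Figure D3:**
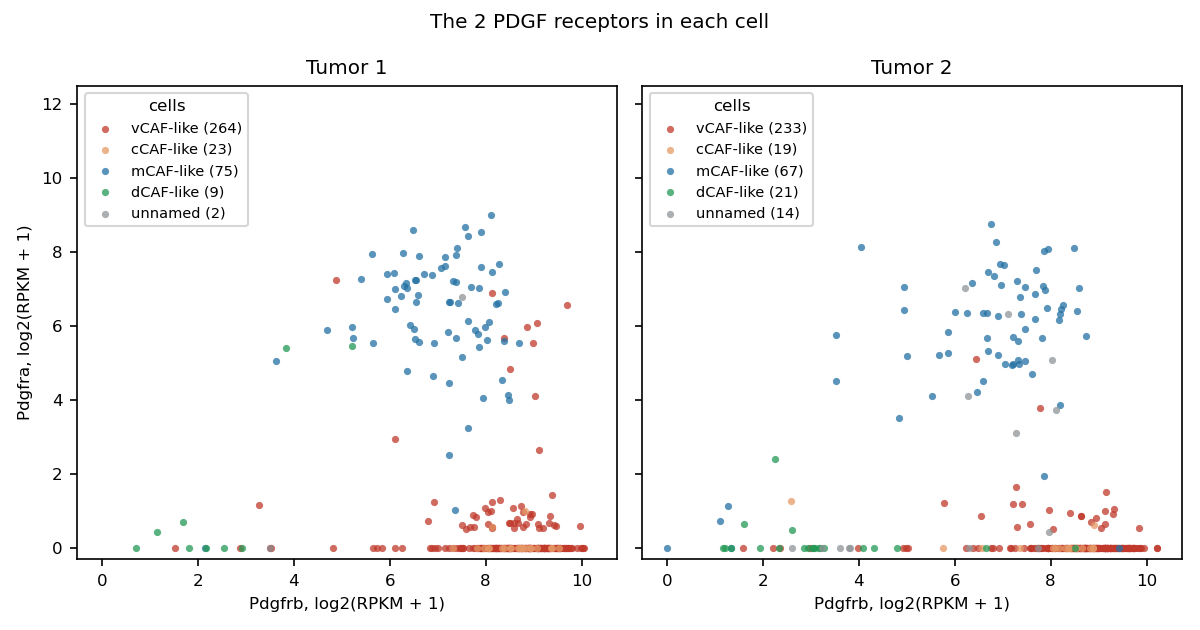
*Pdgfra* against *Pdgfrb* in each cell, both as log2(RPKM + 1), 1 panel per tumor, with color for the population and the number of cells in the key. The mCAF-like cells form a cloud with both receptors, the vCAF-like and cCAF-like cells lie along the lower right with *Pdgfrb* alone, and most dCAF-like cells lie at the lower left. A few vCAF-like cells stand above the others of their population in *Pdgfra*.

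*Pdgfa*, a ligand of the receptor encoded by *Pdgfra*, was the most widely read ligand, mainly in cells with little or none of that receptor. It was read in 247 of 373 and 239 of 354 cells (66.2% and 67.5%), and 197 and 184 (52.8% and 52.0%) passed the background count. Of the cells with a read, 208 and 182 were vCAF-like, and vCAF-like cells held 90.7% and 84.7% of the summed RPKM. Mean levels were 5.75 and 5.73 log2(RPKM + 1) in vCAF-like, 5.81 and 6.47 in cCAF-like, 3.15 and 4.45 in dCAF-like and 0.82 and 1.15 in mCAF-like cells. The order was the same in both tumors, although the step from cCAF-like to vCAF-like cells was small (5.81 was the lower cCAF-like value and 5.75 the higher vCAF-like value). *Pdgfa* rose in vCAF-like cells (1.75 ± 0.25, adjusted p = 0.0086) and fell in mCAF-like cells (-4.14 ± 0.45, adjusted p = 0.0039), from 122 and 236 reads in mCAF-like cells (-4.92 and -3.61 in the tumors alone), of which 1 cell of tumor 2 held 37.3%. A *Pdgfa* read was found in 15 of 75 and 18 of 67 mCAF-like cells, and 3 and 4 of them passed the background count. The values in cCAF-like (0.56 ± 0.21, adjusted p = 0.222) and dCAF-like cells (-1.28 ± 0.74, adjusted p = 0.393) were not called, although cCAF-like cells were called with the ERCC totals (1.08, adjusted p = 0.0470). Within vCAF-like cells 175 and 153 passed the background count of 11 reads and 56 and 51 had no *Pdgfa* read, and the medians over all vCAF-like cells were 7.17 and 7.24. The cells without a read had lower vascular markers (6.16 and 6.29) than those over the background count (7.74 and 7.56), and also fewer reads in the median (165898 against 211038 and 116184 against 213416).

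*Pdgfb*, whose product binds both receptors and is best known from endothelium and platelets, was rare. It was read in 26 of 373 and 21 of 354 cells (6.97% and 5.93%), of which 21 and 15 were vCAF-like and 3 and 5 cCAF-like. Over the background count these were 25 and 12 cells (6.70% and 3.39%), with 21 and 8 vCAF-like and 3 and 4 cCAF-like. The cells that had it were not at a floor of single reads in tumor 1, where all 21 vCAF-like cells had 3 reads or more and at most 246, whereas in tumor 2 7 of the 15 had 1 read. Mean levels were 0.39 and 0.23 log2(RPKM + 1) in vCAF-like, 0.58 and 0.98 in cCAF-like, 0.20 and 0 in dCAF-like and 0.01 and 0.01 in mCAF-like cells. In mCAF-like cells 1 read was left in each tumor, against 867 and 609 in the other cells, and the CPM of the other cells was 300 times (counting interval 53.8 to 11878) and 182 times (32.5 to 7189) higher. These intervals also treat reads as independent and are likely too narrow. The decrease in mCAF-like cells was called (adjusted p = 0.0030). The higher values in vCAF-like cells were not called by edgeR (1.74 ± 0.52, adjusted p = 0.0950) but were by DESeq2 (1.73, adjusted p = 0.0156), and those in cCAF-like cells were not called (1.14 ± 0.65, adjusted p = 0.398). In dCAF-like cells 2 and 0 reads were left, a difference called by DESeq2 (adjusted p = 0.0235) and not by edgeR (adjusted p = 0.148). Few cells decided these sums, since 1 cell held 31.1% and 34.4% of the *Pdgfb* reads of vCAF-like cells. Of 4 platelet markers, 3 and 2 were read in vCAF-like cells (mean summed RPKM 2.61 and 7.20, at most 243 and 341 in a cell) and 2 and 1 in cCAF-like cells (36.9 and 6.84, at most 204 and 50.7). Of 6 endothelial markers, *Pecam1* and *Cdh5* were at 0 in vCAF-like and cCAF-like cells, whereas 3 and 4 others were read in vCAF-like and 1 and 2 in cCAF-like cells. The endothelial sums had means of 58.0 and 114 RPKM in vCAF-like and 62.0 and 107 in cCAF-like cells, and the medians of the summed RPKM of the list were 0 and 0.492 in vCAF-like and 0 and 69.5 in cCAF-like cells. The part of such cells in the *Pdgfb* values was not tested.

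*Pdgfc*, the second ligand of the receptor encoded by *Pdgfra*, was highest in dCAF-like cells among the named populations. It was read in 9 of 9 and 14 of 21 of them, at mean levels of 5.05 and 3.19 log2(RPKM + 1), against 16 of 75 and 14 of 67 mCAF-like cells (1.00 and 0.83), 2 of 23 and 3 of 19 cCAF-like cells (0.45 and 0.32) and 21 of 264 and 16 of 233 vCAF-like cells (0.41 and 0.27). The dCAF-like values did not overlap with those of any other named population. Of the 10 cells led by *Gdf10*, which had no name, 7 had a *Pdgfc* read. Their median level was 3.94 log2(RPKM + 1), against medians of 5.20 and 3.69 over the dCAF-like cells of the tumors. The dCAF-like cells also had *Pdgfa*, with a read in 6 of 9 and 14 of 21, of which 3 and 8 passed the background count. The mean was 25.1 and 133 RPKM, against 56.8 and 32.7 RPKM for *Pdgfc*, so that the order of the ligands turned between the tumors. *Pdgfc* rose in dCAF-like cells (3.04 ± 0.30, adjusted p = 0.0222) and fell in vCAF-like cells (-1.41 ± 0.25, adjusted p = 0.0190), whereas the mCAF-like difference was 0.24 ± 0.29 (adjusted p = 0.638). With every cell scaled to the same total, the dCAF-like (2.91, adjusted p = 0.0686) and vCAF-like values (-1.21, adjusted p = 0.121) kept their direction but not their call. Although dCAF-like cells were 2.41% and 5.93% of the cells, they held 18.7% and 30.1% of the summed *Pdgfc* RPKM, and vCAF-like cells held 58.1% and 37.1% through 21 and 16 cells. No *Pdgfc* read was found in the 41 wells under 10000 reads.

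*Pdgfd*, the second ligand of the receptor encoded by *Pdgfrb*, was read in 34 and 19 cells (9.12% and 5.37%), 22 and 10 of them mCAF-like. Mean levels in mCAF-like cells were 1.36 and 0.79 log2(RPKM + 1). They held 51.4% and 35.8% of the summed *Pdgfd* RPKM, and the cells without a name held 3.82% and 33.2% through 1 and 3 cells. In the other populations the tumors differed: vCAF-like cells had 415 reads in 10 cells of tumor 1 and 1 read in tumor 2, and dCAF-like cells had 0 reads in 9 cells of tumor 1 and 119 reads in 5 of 21 cells of tumor 2. *Pdgfd* rose in mCAF-like against all other cells (1.97 ± 0.47, adjusted p = 0.0442). This call was lost without the 16 cells that had no name (2.28, adjusted p = 0.0754). The values of vCAF-like (-2.17 ± 1.67, adjusted p = 0.501), cCAF-like (-2.73 ± 1.57, adjusted p = 0.400) and dCAF-like cells (0.70 ± 1.92, adjusted p = 0.878) were not called, and the last turned to -1.10 (adjusted p = 0.913) with the tumor as a block.

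**Figure D4:**
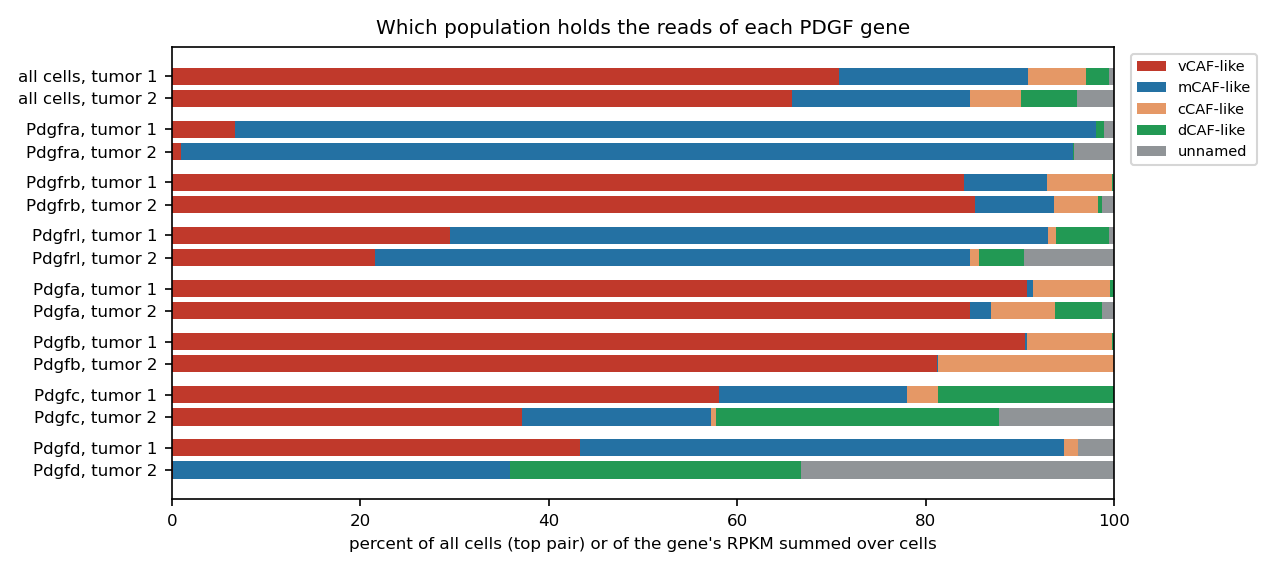
Share of all cells (top pair of bars) and of each gene's RPKM summed over cells held by each population, in percent, 1 bar per tumor. The mCAF-like cells hold 91.3% and 94.6% of *Pdgfra* and the vCAF-like cells 90.7% and 84.7% of *Pdgfa*, whereas the makers of *Pdgfd* differ between the tumors.

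Most cells with a ligand had a single one. At least 1 ligand was read in 285 of 373 and 260 of 354 cells (76.4% and 73.4%), and 228 and 197 cells had exactly 1, 45 and 53 had 2, 11 and 10 had 3 and 1 and 0 had 4. The share with any ligand was 81.8% and 79.0% of vCAF-like, 78.3% and 94.7% of cCAF-like and 54.7% and 46.3% of mCAF-like cells, and 9 of 9 and 19 of 21 dCAF-like cells. Over the background counts, 244 and 216 cells had a ligand (65.4% and 61.0%) and 194 and 169 exactly 1, and the shares became 69.3% and 67.0% of vCAF-like, 69.6% and 78.9% of cCAF-like and 46.7% and 31.3% of mCAF-like cells, and 9 of 9 and 16 of 21 dCAF-like cells. Ligand and matching receptor met in the same cell in different ways. Over the background counts, *Pdgfra* was found in 6 of 197 and 6 of 184 cells with *Pdgfa* (3.05% and 3.26%), but in 18 of 48 and 17 of 54 cells with *Pdgfc* (37.5% and 31.5%), beside 86 of 373 and 71 of 354 of all cells (23.1% and 20.1%). With at least 1 read of each gene, *Pdgfra* was found in 56 of 247 and 43 of 239 cells with *Pdgfa*. *Pdgfrb* was found in 25 of 25 and 11 of 12 cells with *Pdgfb* and in 34 of 34 and 16 of 19 cells with *Pdgfd*. These shares stand beside the 355 of 373 and 317 of 354 of all cells that passed the *Pdgfrb* background count. Over these counts, *Pdgfa* was found mainly in cells with *Pdgfrb* alone (189 of 271 and 169 of 249) and seldom in cells with both receptors (6 of 84 and 6 of 68). With at least 1 read, it was found in 191 of 241 and 196 of 254 cells with *Pdgfrb* alone and in 56 of 132 and 43 of 99 with both. Over the background counts, *Pdgfd* was found in 9 of 271 and 4 of 249 cells with *Pdgfrb* alone and in 25 of 84 and 12 of 68 with both. *Pdgfrl* was found in 79 of 84 and 62 of 68 cells with both receptors.

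Across the 7 genes, vCAF-like cells differed from the other cells in 5 (2 higher and 3 lower), against 12.7% of 11715 genes tested (4.59% higher and 8.13% lower). In mCAF-like cells 6 of 7 were called (3 higher and 3 lower), against 16.2% of all genes (9.25% higher and 6.92% lower). In cCAF-like cells 2 of 7 were called, both lower, against 4.63% of all genes (2.15% lower). In dCAF-like cells 2 of 7 were called (1 higher and 1 lower), against 5.32% (2.03% higher and 3.29% lower). The populations were drawn from other genes of the same cells, so these comparisons describe the populations and share their cells with each other. A sum over cells cannot tell fewer cells with a transcript from less of it per cell, which the shares above give. The plot of fold changes shows that each called value had the same sign in both tumors.

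**Figure D5:**
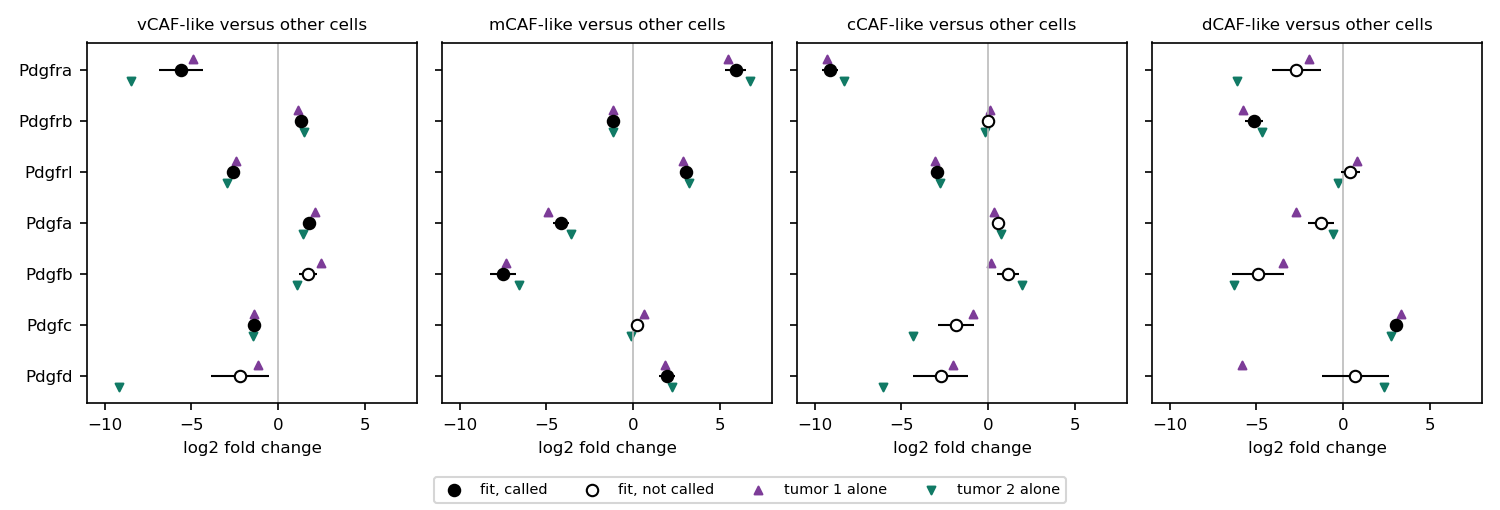
Log2 fold change of the 7 PDGF genes in each population against all other cells, with the fit over both tumors as circles (filled where called, bars for the SE) and each tumor alone as triangles (0.5 reads added, no test). In mCAF-like cells 6 of 7 genes are called, and *Pdgfd* in dCAF-like cells lies on opposite sides of 0 in the tumors.

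Set directly against each other in a fit of 8 libraries, mCAF-like and vCAF-like cells differed in 3 of 7 genes (1 higher and 2 lower), against 4.81% of all genes (2.55% higher and 2.26% lower). *Pdgfrl* was higher (3.24 ± 0.52, adjusted p = 0.0197) and *Pdgfa* lower in mCAF-like cells (-4.23 ± 0.79, adjusted p = 0.0315, and -5.02 and -3.70 in the tumors alone). The *Pdgfa* call was lost with the ERCC totals (-3.40, adjusted p = 0.0540) and with scaled cells (-3.66, adjusted p = 0.101). *Pdgfb*, with 1 read per tumor in mCAF-like cells against 791 and 482, was called lower (adjusted p = 0.0362) but not with the tumor as a block (adjusted p = 0.0723) or with scaled cells (adjusted p = 0.0618). The opposite held for *Pdgfra* (6.35 ± 1.75, adjusted p = 0.108, and adjusted p = 0.0452 with the block), whose ratios in the tumors alone were 5.59 and 9.35 on the log2 scale. In tumor 1, 1048 of the 1096 *Pdgfra* reads of vCAF-like cells were in the 10 cells over the background count. *Pdgfra* was also called with DESeq2, the ERCC totals, no filter on genes and the 3 other clusterings of the same wells (6.21 to 7.26, adjusted p = 3.4e-05 to 0.0436). *Pdgfrb* was not called by edgeR (-1.35 ± 0.38, adjusted p = 0.112), but it was by DESeq2 (-1.33, adjusted p = 0.0090) and with wells kept by 2 quality metrics (-1.37, adjusted p = 0.0294), where eps also became 2.1 in place of 3.1. The values of *Pdgfc* (0.86 ± 0.80, adjusted p = 0.821) and *Pdgfd* (2.48 ± 2.56, adjusted p = 0.855) were not called. Between cCAF-like and vCAF-like cells 0 of 7 genes were called by edgeR, against 0.367% of all genes (0.0598% lower), with 1 at an unadjusted p under 0.05 (*Pdgfrl*, -1.36 ± 0.49, unadjusted p = 0.0276), beside 1445 of the 11715 genes. DESeq2 called *Pdgfra* in this comparison (-4.91, adjusted p = 0.0207). The tumors alone gave -5.65 and -1.19, from 2 reads in the cCAF-like cells of each tumor against 1096 and 55. In tumor 2 the vCAF-like level was 2.94 times that of cCAF-like cells (counting interval 0.775 to 24.8). The values of *Pdgfa* (0.10 ± 0.69), *Pdgfb* (0.62 ± 1.03) and *Pdgfrb* (-0.36 ± 0.37) had errors that left room for differences of either sign.

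Other genes of the pathway were followed in lists of ligand processing and binding (11 of 13 genes passed the filter on low values), signal transduction (34 of 36), negative regulators (13 of 13) and related receptors and ligands (3 of 6). These genes, unlike the 7, could take part in the clustering. In mCAF-like cells, 5 of 11 genes of ligand processing and binding rose and 0 fell (median log2 change 0.44, against -0.04 over all genes), beside 9.25% of all genes higher and 6.92% lower. They included the convertase gene *Pcsk5* (6.36 ± 0.66), urokinase *Plau* (2.66 ± 0.39), the endocytic receptor *Lrp1* (2.05 ± 0.21) and the heparan sulfate proteoglycan *Hspg2* (1.89 ± 0.17). In vCAF-like cells, where 4.59% of all genes were higher and 8.13% lower, 1 of the 11 rose and 5 fell, among them *Pcsk6* (-8.48 ± 1.02), *Pcsk5* (-5.52 ± 0.74), *Plau* (-1.98 ± 0.42) and *Lrp1* (-1.44 ± 0.18). In dCAF-like cells, where 2.03% of all genes were higher and 3.29% lower, *Pcsk6* rose (5.78 ± 0.94), whereas the co-receptor *Nrp1* (-6.27 ± 0.69) and *Pcsk5* (-2.72 ± 0.39) fell, and in cCAF-like cells, with 2.15% of all genes lower, *Pcsk5* was the 1 of 11 that fell (-8.08 ± 0.48). The 3 dCAF-like calls were lost with the ERCC totals (adjusted p = 0.0565 to 0.0793).

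Of the negative regulators, 1 of 13 rose and 5 fell in mCAF-like cells (median -0.40, beside 9.25% of all genes higher and 6.92% lower), with the RTK feedback inhibitors *Spry4* (-2.48 ± 0.18) and *Spry2* (-1.84 ± 0.25) and the adaptor *Sh2b3* (-1.83 ± 0.29) lower and the RasGAP *Rasa1* higher (1.58 ± 0.16). In vCAF-like cells 3 of 13 rose and 1 fell (median 0.27, against 0.02 over all genes, of which 4.59% were higher and 8.13% lower), with *Spry4* (1.93 ± 0.15) and *Sh2b3* (1.32 ± 0.28) among those higher and *Rasa1* lower (-1.15 ± 0.14). The call of *Sh2b3* was lost with the ERCC totals (adjusted p = 0.219). In dCAF-like cells, where 3.29% of all genes were lower, 2 of 13 fell, among them *Sh2b3* (-2.02 ± 0.30), whose call was lost with the tumor as a block (adjusted p = 0.0668) and with the ERCC totals (adjusted p = 0.112). Of signal transduction, 4 of 34 genes rose in vCAF-like cells (among them *Gab1*, 1.23 ± 0.17, *Src*, 1.22 ± 0.18, and *Pik3ca*, 0.93 ± 0.22), and 2 rose (among them *Nras*, 0.79 ± 0.19) and 2 fell in mCAF-like cells (*Gab1*, -1.69 ± 0.26, and *Src*, -1.52 ± 0.17). These counts are no result about the list, since 12.7% of all genes were called in vCAF-like and 16.2% in mCAF-like cells. None of the 4 in vCAF-like cells was called with the ERCC totals (adjusted p = 0.118 to 0.734). In dCAF-like cells 1 of 34 was called, under the 5.32% of all genes. It was *Pik3r3*, which rose (1.81 ± 0.29), but not with the block (adjusted p = 0.0948) or the ERCC totals (adjusted p = 0.0757). Of the 3 related receptors and ligands tested, *Csf1*, a growth factor of macrophages, fell in vCAF-like cells (-2.34 ± 0.23) and rose in mCAF-like cells, also when these were set against vCAF-like cells (3.06 ± 0.42), and *Kitl*, the ligand of KIT, fell in mCAF-like (-1.06 ± 0.21) and rose in vCAF-like cells (0.82 ± 0.14). Both *Kitl* calls were lost with the ERCC totals (adjusted p = 0.347 and 0.901). Between mCAF-like and vCAF-like cells, 4 of 11 genes of ligand processing and binding were higher and 0 lower, 0 of 34 of signal transduction higher and 2 lower, and 1 of 13 negative regulators higher and 2 lower, beside 2.55% of all genes higher and 2.26% lower. The count for signal transduction is near that share. Between cCAF-like and vCAF-like cells the median log2 fold changes of these 3 lists were -0.06, -0.06 and -0.37, beside -0.05 over all genes tested.

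The genes whose pattern over cells was most like that of each member were found by the lower of the Spearman correlations in the tumors (373 and 354 cells), among 9600 genes that at least 10% of cells had in both tumors. For *Pdgfra* they were *Pdpn* (0.72 and 0.71), *Cpxm1* (0.70 and 0.70) and *Svep1* (0.72 and 0.69), the last a marker used to name mCAF-like cells. For *Pdgfrb* they were *Kcnj8* (0.62 and 0.74), also a marker used for naming, *Sparcl1* (0.61 and 0.64) and *Cygb* (0.61 and 0.71), and for *Pdgfa* *Mcam* (0.59 and 0.51), again a marker used for naming, *Mylk* (0.60 and 0.51) and *Acta2* (0.56 and 0.50). *Pdgfrl* was most like *Rnase4* (0.60 and 0.56), *Pdpn* (0.57 and 0.52) and *Clec11a* (0.54 and 0.52), and *Pdgfra* came next at rank 4 (0.52 and 0.51). For *Pdgfc* the values were lower, with *Tanc2* (0.37 and 0.33), *S100a10* (0.31 and 0.39) and *Fhl1* (0.31 and 0.29). Between members, *Pdgfra* ran against *Pdgfrb* (-0.45 and -0.41) and against its ligand *Pdgfa* (-0.45 and -0.43). *Pdgfb* and *Pdgfd* were read in too few cells. Cells of a tumor share a plate and differ in depth, and the values are a description.

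The 10 cells led by *Gdf10* carried a broad set of the family. All 10 had more than 13 *Pdgfrb* reads, from 34 to 624, and 6 passed the *Pdgfra* background count, with a median of 25 reads over the 10. *Pdgfrl* had reads in 10 of them, *Pdgfa* in 8, *Pdgfc* in 7 and *Pdgfd* in 4, whereas *Pdgfb* had none in any. Over the background counts these were 9 for *Pdgfrl*, 4 for *Pdgfa*, 7 for *Pdgfc* and 4 for *Pdgfd*. They came from tumor 2 but for 1 cell, so that no replicate stands behind these values.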

How the data were processed

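RNA of single sorted cells was measured in 768 wells. The authors mapped reads of 43 bases with STAR (mm10) and assigned them to RefSeq genes. The deposited counts are whole reads per gene without normalization, and the second table is in RPKM, for which the authors scaled the same reads to gene length and depth. Both tables hold 24490 genes and 92 ERCC spike-ins. Each well was mapped to its tumor by its label. The 7 genes, the gene lists and the tests were chosen with earlier results of these data known.

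Wells with at least 10000 reads outside the spike-ins were kept (727), and the 41 others served as a view of the background. Populations were rebuilt after the steps of the study, with variable genes ranked against the spike-ins (the 7 PDGF genes left out), log2(RPKM + 1) given to Rtsne 0.17 (perplexity 27, 30 components, theta 0.5, the best of 50 seeded runs) and DBSCAN from scikit-learn 1.9.0 (minimum of 5 points, with eps 3.1 as the largest of a set of values at which all 4 names were found, a choice repeated when wells or genes changed). A cluster took the name of a marker list when at least 50% of its cells carried at least 50% of the list and the mean level of the list was at least 5. That level was set after the data were seen, and differences from the study may come from rebuilt names. No doublet caller was run. Shares of cells are given with exact binomial intervals of 95% and, for a count of 0, with the limit that 3 counts allow.

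Counts were summed per tumor and population, and the 11715 genes whose mean RPKM reached 1 were tested with edgeR 4.0.16 (TMM, glmQLFit, glmQLFTest), with Benjamini-Hochberg adjustment over all of them and calls at 0.05. A population was set against all other cells in 4 libraries, and pairs of populations were compared in 8. The script was tested on simulated data. With 2 tumors the p-values measure the spread between 2 libraries per arm. Both libraries of a pair hold cells of 1 animal and are thus paired by tumor, and their deviations from the group means correlated by 0.0741 to 0.154. The text names the 7 genes, the 3 most similar genes of each, and at most 4 called genes per list and comparison by size of change. Some genes of these lists are not reported here by name. Alternatives were DESeq2 1.42.0, its size factors, ERCC totals as library size, cells scaled to the same total, no filter on genes, other well filters, detection limits and clusterings (scanpy 1.11.5), and 50000 reads per cell. Promoter windows and positions were taken from RefSeq GRCm38.p6, in which all 7 genes were found by symbol and windows for 4 of them (*Pdgfra*, *Pdgfa*, *Pdgfc* and *Pdgfd*).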

Additional observations from a re-analysis of the deposited data

How the results depend on the processing

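Of the 42 fold changes (7 genes in 6 comparisons), 42 kept their direction and their side of the threshold with DESeq2 size factors, 41 without the filter on genes and with wells kept by 2 quality metrics, 40 with each other clustering, 39 with the tumor as a replicate block, 37 with DESeq2, 36 with cells scaled to the same total and 34 with the ERCC totals. Without the cells that had no name, chosen after the data were seen, 27 of 28 did. The direction turned in 4 values, none of them called: *Pdgfrb* in cCAF-like cells with the ERCC totals (0.51 against other cells and 0.37 against vCAF-like cells, where this scaling moved the median of all genes to 0.48 and 0.68), *Pdgfd* in dCAF-like cells with the block (-1.10) and *Pdgfa* in cCAF-like against vCAF-like cells with scaled cells (-0.023). With the block, the number of called genes was the same in each comparison (5, 6, 2, 2, 3 and 0), although *Pdgfb* and *Pdgfra* changed places between mCAF-like and vCAF-like cells.

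At an adjusted p of 0.001, 0 PDGF genes were called in any comparison by edgeR, but of the 11715 genes tested only 33 were called in vCAF-like and 106 in mCAF-like cells and 0 in the other 4 comparisons, so this says nothing about the 7. In dCAF-like cells 1 of 7 was called with the ERCC totals, Leiden clustering, Ward clustering and PDGF genes kept for clustering, and 0 with scaled cells, in place of 2, and the calls over all 11715 genes fell from 623 to 210, 384, 172, 442 and 214. DESeq2 called 3 there and 6 in place of 5 in vCAF-like cells, with *Pdgfb* added in both, and 2248 in place of 623 and 2466 in place of 1490 of all genes. Between mCAF-like and vCAF-like cells DESeq2 called 5 and scaled cells 1, in place of 3, and between cCAF-like and vCAF-like cells DESeq2 called 1 in place of 0, where over all genes the calls were 1357, 410 and 840 in place of 564, 564 and 43. The cause was not tested.

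The share of cells with both receptors was 31.7%, and became 25.1% at 50000 reads per cell, 24.3% at an RPKM of at least 1, 21.1% at 5 reads, 20.9% over the background counts and 20.7% at an RPKM of at least 10, with fewer single *Pdgfra* reads counted in vCAF-like cells. It was 28.0% to 35.4% in the tumors alone. The share with any ligand was 74.9%, and became 71.9% at 50000 reads, 71.4% over all 768 wells, 69.1% at an RPKM of at least 10, 67.1% at 5 reads and 63.2% over the background counts, with 73.4% to 76.4% in the tumors alone. A single tumor has no replicate, and its fold changes were therefore not tested.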
